A study of Bos taurus with 34 samples.

Results

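OR12D2 (ENSBTAG00000040188) is a bovine olfactory receptor gene whose transcript was counted here in peripheral white blood cells (PWBC) of beef heifers. It was 1 of 27570 genes counted, and it was chosen by its measured counts, as a gene close to absent in heifers that became pregnant from artificial insemination (AI). Its levels in the groups are therefore a description and carry no test. Olfactory receptors are G protein-coupled receptors, and a mature olfactory sensory neuron usually expresses a single receptor gene from a single allele. In these neurons the receptor acts through the G protein subunit encoded by GNAL, the adenylyl cyclase ADCY3 and a cyclic nucleotide-gated channel. The receptor genes lie in clusters, 1 of them beside the major histocompatibility complex, and transcripts of some receptors have been found outside the nose.

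The libraries came from crossbred heifers of Angus and Simmental descent, about 14 months old, whose estrus was synchronized before AI at a fixed time with semen from 1 sire. Blood was drawn at the time of AI, so the samples predate the outcome, and bulls were introduced 14 days later. Heifers pregnant from AI formed the group AI-preg (n = 6), heifers pregnant from the bulls formed NB-preg (n = 6), and heifers that conceived from neither were non-pregnant (n = 5). Every group received the same synchronization, and PWBC were the buffy coat left after red cells were lysed, a mixture of leukocyte types. PTPRC, the leukocyte common antigen CD45, was counted in all 17 libraries, at 125 to 3225 CPM (counts-per-million). CPM were taken over the genes past a filter, which kept the 10942 genes that reached 2 CPM in at least 5 libraries.

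Library totals ranged from 4184999 counts in non-pregnant heifer 101 to 67192941 in AI-preg heifer 99. The median total was 8175887 counts in non-pregnant heifers, 19195350 in NB-preg and 32535945 in AI-preg. AI-preg libraries were 3.41-fold deeper than non-pregnant libraries by geometric means (exact permutation test, two-sided, p = 0.013, adjusted p = 0.039 over 3 pairs of groups). That call was lost when any 1 of the 5 non-pregnant heifers, or of the AI-preg heifers other than 114, was left out (adjusted p from 0.057 to 0.086). The difference was 1.67-fold between AI-preg and NB-preg (exact permutation p = 0.24, adjusted p = 0.24) and 2.05-fold between NB-preg and non-pregnant heifers (exact permutation p = 0.16, adjusted p = 0.24). The group in which OR12D2 was close to absent thus had the highest median total.

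The name of the gene needs care. The study's annotation gave the symbol OR12D2 through the RefSeq transcript NM_001098382. In the RefSeq gene table of the ARS-UCD2.0 assembly that transcript belongs to a gene named OR12D2E, and the symbol OR12D2 belongs to a different gene, with transcript NM_001390440, in the same cluster on cow chromosome 23. The counts were made on another assembly, ARS-UCD1.2, so only names, gene types, and the order and overlap of neighbours were taken from this table. OR12D2E had an olfactory receptor gene at each of the 20 nearest positions, 10 on each side, of which 16 were protein-coding and 4 pseudogenes. The table held 13 genes with an OR12D symbol, 11 protein-coding and 2 pseudogenes, all on chromosome 23. The span of OR12D2E enclosed OR12D2D and overlapped OR5V2. Reads with several alignments were removed before counting, so reads shared with a near-identical copy or an overlapping gene could be lost or misplaced, and the counts of OR12D2 are uncertain in that respect. The table carried an Ensembl identifier for 0 genes, so the counts of these neighbours were not analysed here.

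OR12D2 received 558 counts in the 17 PWBC libraries. It had 0 counts in 9 libraries, 3 counts in 1 library and 8 or more in the other 7. In AI-preg heifers it had 0 counts in heifers 92, 99, 114, 117 and 119, and 3 counts in heifer 120, or 0.0768 CPM (95% Poisson interval 0.0158 to 0.224). In NB-preg heifers it had 0 counts in heifers 93, 103 and 116, 60 counts in heifer 108 (2.57 CPM), 309 in heifer 111 (6.58 CPM) and 59 in heifer 121 (3.93 CPM). In non-pregnant heifers it had 16 counts in heifer 94 (1.03 CPM), 8 in heifer 101 (1.92 CPM), 32 in heifer 107 (3.93 CPM), 0 in heifer 113 and 71 in heifer 115 (8.73 CPM).

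The 3 groups overlapped, because each held at least 1 heifer without a count. More than 3 counts were present in 0 of 6 AI-preg, 3 of 6 NB-preg and 4 of 5 non-pregnant heifers. The median was 0 CPM in AI-preg, 1.29 CPM in NB-preg (mean 2.18 ± 2.72, SD, n = 6) and 1.92 CPM in non-pregnant heifers (mean 3.12 ± 3.45, SD, n = 5). The SD exceeded the mean in both of the latter groups. Leaving out 1 heifer gave medians of 0 to 2.57 CPM in NB-preg and 1.48 to 2.92 CPM in non-pregnant heifers. A single library, that of NB-preg heifer 111, supplied 55.4% of all OR12D2 counts. In these bulk samples, fewer cells of a type and less RNA per cell cannot be told apart.

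**Figure D1:**
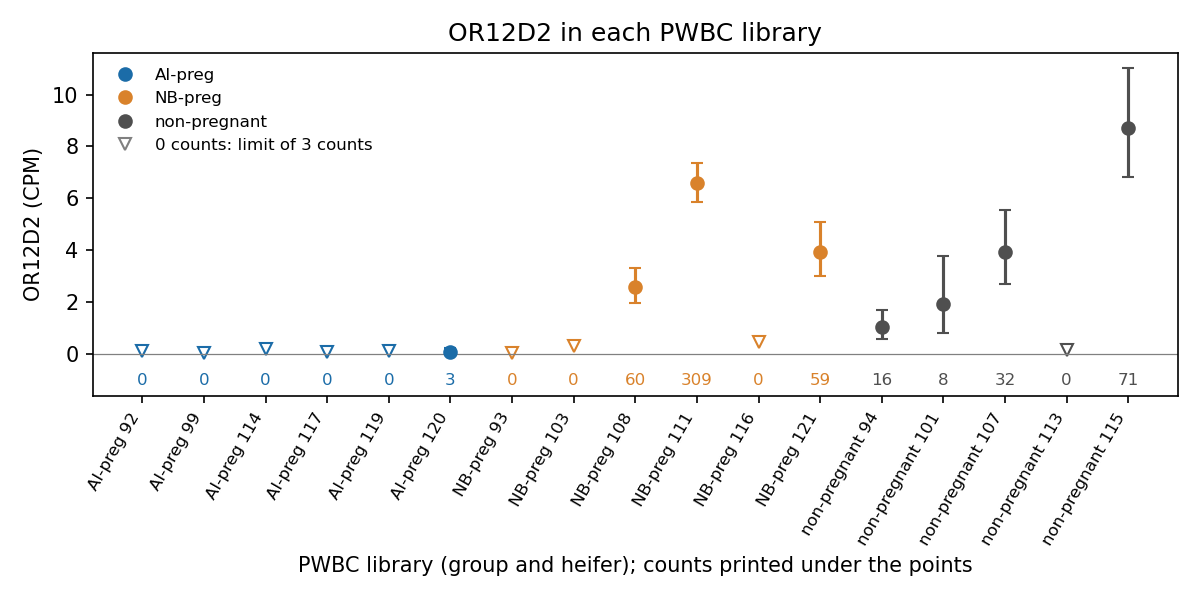
OR12D2 in each of the 17 PWBC libraries, in CPM, by group and heifer. Filled points are levels with exact 95% Poisson intervals, open triangles mark the limit of 3 counts in libraries with 0 counts, and the counts are printed under the points; the level is above 1 CPM in 3 NB-preg and 4 non-pregnant libraries.

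Pooled over a group, OR12D2 had 3 counts in 223022575 for AI-preg, or 0.0135 CPM (95% Poisson interval 0.00277 to 0.0393). It had 428 counts in 158739501 for NB-preg, or 2.70 CPM (2.45 to 2.96), and 127 counts in 56043193 for non-pregnant heifers, or 2.27 CPM (1.89 to 2.70). These intervals cover counting error only and leave out the spread between heifers. The pooled levels rested on single libraries. Without heifer 111 the NB-preg level was 1.06 CPM, and without heifer 93 it was 4.197 CPM. Without heifer 115 the non-pregnant level was 1.17 CPM, and without heifer 113 it was 3.53 CPM. All 3 counts of AI-preg came from heifer 120. Within NB-preg, heifer 108 had at least 48.7-fold and heifer 111 at least 125-fold the level of heifer 93, taking 3 counts as the limit for the 0 counts of that library. Within the non-pregnant group, heifer 94 was at least 6.92-fold above the limit of heifer 113. The contrast between presence and absence was therefore found inside NB-preg and inside the non-pregnant group as well as between groups.

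In order of level, non-pregnant heifer 115 came first, followed by NB-preg 111, NB-preg 121, non-pregnant 107, NB-preg 108, non-pregnant 101, non-pregnant 94 and AI-preg 120. The non-pregnant and NB-preg heifers were interleaved along this order. Poisson intervals of neighbours overlapped for all but 2 of the 7 steps. Those were the step from NB-preg 111 to NB-preg 121, a ratio of 1.67, and the step from non-pregnant 94 to AI-preg 120, a ratio of 13.4. Among the 7 libraries above 3 counts the highest level was 8.45 times the lowest. The next level in the order was over an order of magnitude lower, so no observed level lay between 0.0768 and 1.03 CPM. A count of 0 did not exclude a level in the lower part of that gap, since the limit of 3 counts reached 0.469 CPM in NB-preg 116.

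Depth limited what a count of 0 could show to different degrees. In AI-preg the limit of 3 counts ranged from 0.0448 CPM in heifer 99 to 0.196 CPM in heifer 114. It was 0.0529 CPM in NB-preg 93, 0.291 CPM in NB-preg 103, 0.469 CPM in NB-preg 116 and 0.149 CPM in non-pregnant 113. Every one of these limits was below 1.03 CPM, the lowest level among libraries above 3 counts. At that level AI-preg 99 would have held 69.2 counts, NB-preg 93 would have held 58.6 and the shallowest of these libraries, NB-preg 116, would have held 6.60. The shallowest library of the series, non-pregnant 101, held 8 counts. These are the counts that chose the gene, and the part of depth in the zeros was not tested. These limits are upper bounds behind a 0, and lower levels can still give a count.

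**Figure D2:**
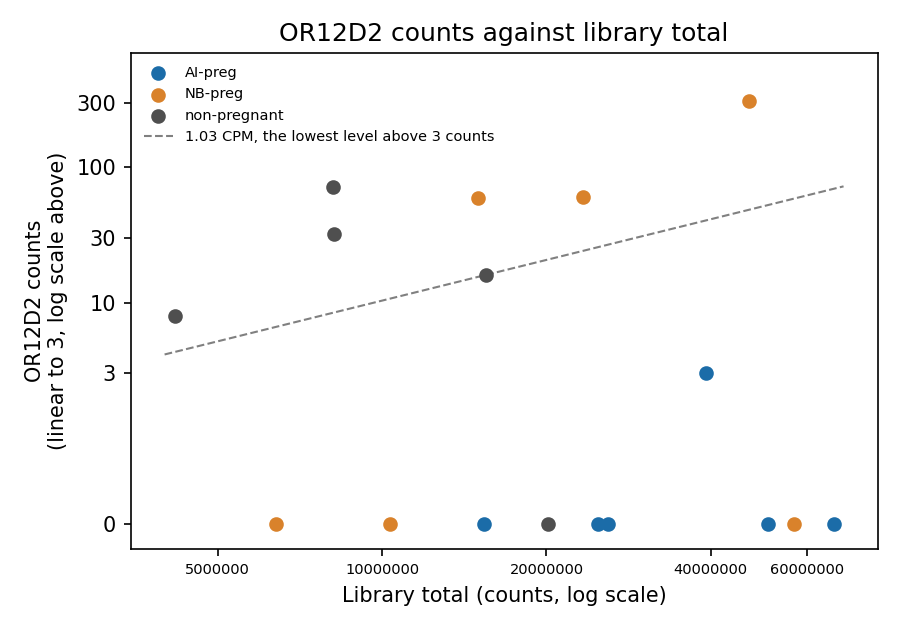
OR12D2 counts (y axis, linear to 3 and logarithmic above) against the library total in counts (x axis, log scale) for 17 PWBC libraries, coloured by group. The dashed line marks 1.03 CPM, the lowest level above 3 counts; libraries with 0 counts run from a total of 6402207 to 67192941, and those above 3 counts from 4184999 to 47079050.

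OR12D2 stood at the edge of the filter on low counts. The filter, on totals over all genes counted, asked for 2 CPM in 5 libraries, and exactly 5 reached it, namely NB-preg 108, 111 and 121 and non-pregnant 107 and 115. The lowest of them was at 2.57 CPM, and the library just outside, non-pregnant 101, was at 1.91 CPM on that scale. Without any 1 of those 5 libraries OR12D2 did not pass the filter, and its place among the genes tested rested on each of them.

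Few genes past the filter were at 0 in so many libraries. Of the 10942 genes, 8813 had a count in all 17 libraries and 1156 were at 0 in 1 library. At least 8 libraries were at 0 for 5 genes, and 9 libraries for 2 genes, OR12D2 and ENSBTAG00000016063, the latter named after its values were seen. The patterns of these 2 genes matched in some libraries and differed in more. ENSBTAG00000016063 had 237 counts in NB-preg 108 and 364 in non-pregnant 115, where OR12D2 had 60 and 71, and both genes were at 0 in AI-preg 114, AI-preg 119 and NB-preg 116. It also had 108 counts in AI-preg 92, 254 in AI-preg 99, 840 in AI-preg 117, 735 in NB-preg 93, 51 in NB-preg 103 and 246 in non-pregnant 113, in all of which OR12D2 had 0. It had 0 counts in AI-preg 120, in NB-preg 111 and 121 and in non-pregnant 94, 101 and 107, in all of which OR12D2 was counted. Part of this ranking came from the filter, since a gene at 0 in more than 12 libraries could not pass it. Of the 9 zeros of OR12D2, 5 were in AI-preg, the group whose low counts chose the gene. Nothing is therefore read from its place in this ranking.

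**Figure D3:**
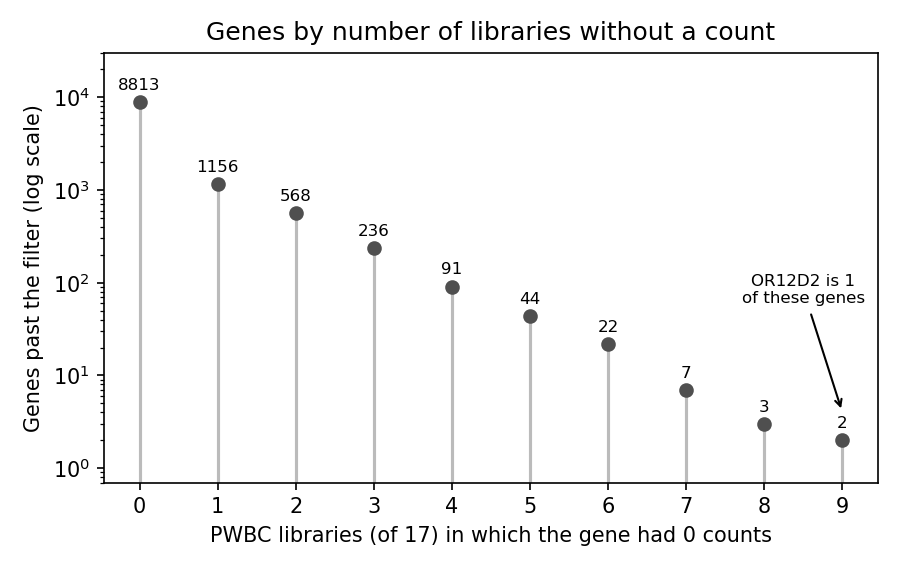
Number of genes past the filter (y axis, log scale) by the number of the 17 PWBC libraries in which the gene had 0 counts (x axis). The number falls from 8813 genes with no library at 0 to 2 genes with 9, OR12D2 among them.

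The pattern for which OR12D2 was chosen was set beside the same pattern in the other groups. At most 1 CPM in every library of AI-preg, with 2 CPM or more in at least 5 other libraries, was met by 5 of 10942 genes (0.0457%). The same rule was met by 3 genes (0.0274%) for NB-preg and by 6 genes (0.0548%) for the non-pregnant group. OR12D2 was 1 of the 5 genes for AI-preg, and nothing is read from that count because the rule that chose it used the same libraries. The other 4, named after their values were seen, were FDXR, which encodes the mitochondrial ferredoxin reductase, MISP3, ENSBTAG00000027126 and ENSBTAG00000049416. Their highest levels in AI-preg were 0.889 CPM, 0.889 CPM, 0.582 CPM and 0.925 CPM, with counts in at least 4 of the 6 AI-preg libraries each. At a limit of 0.5 CPM in place of 1 CPM, OR12D2 alone met the rule for AI-preg, with 0 genes for NB-preg and 2 for the non-pregnant group. Nothing is read from that either, since OR12D2 was chosen for its low counts in these AI-preg libraries. Without AI-preg heifer 114 the AI-preg count was 25 genes, and without non-pregnant heifer 101 the count for the non-pregnant group was 68 genes. The NB-preg count was 13 genes without NB-preg 108, and the AI-preg count fell to 2 genes without any 1 of NB-preg 103, NB-preg 108, non-pregnant 107 and non-pregnant 113. All 3 counts thus depended on single libraries. OR12D2 did not meet the rule when any 1 of the 5 libraries at 2 CPM or more was left out.

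**Figure D4:**
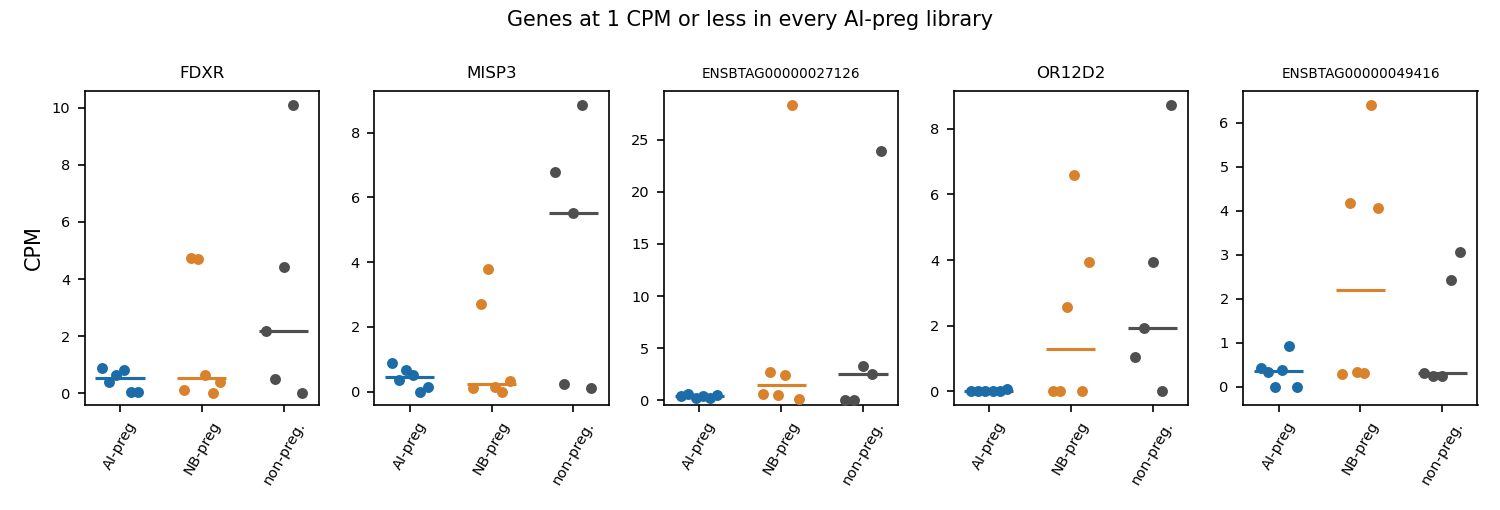
CPM in each PWBC library (points) and group medians (lines) for the 5 genes at 1 CPM or less in every AI-preg library. For OR12D2 the highest AI-preg level is 0.0768 CPM; for the other 4 genes it lies between 0.582 and 0.925 CPM. The y axes differ between panels.

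Genes with the most similar profile were ranked by the Pearson correlation of log2(CPM + 1) with OR12D2 over 17 heifers, given as a measure of likeness with no test. Over 10941 genes r ran from -0.64 to 0.69 with a median of -0.11, and 0 genes exceeded 0.7. The highest was ENSBTAG00000016954 (r = 0.69, Spearman correlation 0.63), which had a count in every library and ranged from 0.614 to 5.53 CPM in AI-preg, from 1.43 to 9.82 CPM in NB-preg and from 3.98 to 10.3 CPM in non-pregnant heifers. It was also counted in the libraries where OR12D2 had 0 counts. The next was ENSBTAG00000010002 (r = 0.61, Spearman correlation 0.55), at 128 to 335 CPM. The other 6 of the 8 highest had r from 0.54 to 0.60. Among the 4 lowest, C16H1orf115 had r = -0.63 (Spearman correlation -0.60), with a median of 6.31 CPM in AI-preg, 6.44 CPM in NB-preg and 3.10 CPM in non-pregnant heifers. The ranking was unsteady, since 2 of the 8 highest genes by r were also among the 8 highest by Spearman correlation, and 1 of the 8 remained when non-pregnant heifer 115 was left out. All these values share the depth of the same libraries.

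Over the genes with any count, an alternative added after the data were seen, the highest r was 0.73 (Spearman correlation 0.77), for ENSBTAG00000003078, a gene that did not pass the filter. It had 62 counts in all, 15 in NB-preg 108, 14 in NB-preg 111, 10 in NB-preg 121 and 23 in non-pregnant 115, and 0 in the other 13 libraries. All 4 libraries with counts of this gene also held OR12D2, among them the 3 with the highest levels. With so few counts this likeness is a description of 4 libraries.

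Across the transcriptome, edgeR's quasi-likelihood test called 0 of 10942 genes at an adjusted p under 0.05 between AI-preg and non-pregnant heifers (0%), between NB-preg and non-pregnant heifers (0%) and between AI-preg and NB-preg (0%). Unadjusted p was under 0.05 for 585, 672 and 16 genes. Without 1 heifer the first count ran from 236 (non-pregnant 113) to 1647 (non-pregnant 101). The second ran from 269 (non-pregnant 113) to 1882 (non-pregnant 115), and the third from 7 (AI-preg 120) to 129 (AI-preg 114). DESeq2 called 5 of 10901 genes (0.0459%), all lower in AI-preg than in non-pregnant heifers, 11 (0.101%), all lower in NB-preg than in non-pregnant heifers, and 0 (0%) between AI-preg and NB-preg. OR12D2 was 1 of the 5, from which nothing is read, since it was selected on the counts of these groups.

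Genes that act downstream of olfactory receptors were read from the same fits. Gene symbols could be paired with 2224 of the 10942 genes, through gene tables that the study chose in part on these same samples, so the members found are not an even sample of a list and their counts are not independent evidence. Of 20 genes of olfactory signalling, 4 had an identifier and passed the filter, and 0 of 4 passed the test in any contrast. RIC8B, a chaperone and exchange factor of the olfactory G protein subunit, was at a median of 55.6 CPM in AI-preg, 57.4 CPM in NB-preg and 30.9 CPM in non-pregnant heifers, with overlapping ranges. Its log2 fold change between AI-preg and non-pregnant heifers was 0.70 (SE 0.51, edgeR adjusted p = 0.78). ARRB2, the arrestin that desensitizes many G protein-coupled receptors, was at 2.21 to 108 CPM in AI-preg and 2.70 to 292 CPM in non-pregnant heifers (log2 fold change -1.71, SE 0.92, edgeR adjusted p = 0.78). RGS2, which shortens G protein signals by speeding GTP hydrolysis, had medians of 15.3 CPM in AI-preg, 23.5 CPM in NB-preg and 179 CPM in non-pregnant heifers. The fold change of RGS2 between AI-preg and non-pregnant heifers was -2.45 on the log2 scale (SE 0.85, edgeR adjusted p = 0.78), and its ranges overlapped. It was -3.51 without AI-preg 114 and -2.10 without non-pregnant 107, the extremes when 1 heifer was left out. RGS3, of the same family, had medians of 9.31 CPM in AI-preg, 8.33 CPM in NB-preg and 11.4 CPM in non-pregnant heifers. The 3 highest levels of ARRB2 (292, 165 and 224 CPM) and of RGS2 (233, 347 and 179 CPM) were in non-pregnant 94, 107 and 113, in that order, which also had the highest summed level of the neutrophil genes. GNAL, ADCY3 and the channel subunits were not analysed here, because no identifier was paired with them.

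Of 12 genes that take part in the choice of 1 receptor gene in olfactory neurons, 2 were found, and 0 passed the test. LDB1, which bridges the enhancers bound by LHX2 in those neurons, was counted in every library, with medians of 51.7 CPM in AI-preg, 48.2 CPM in NB-preg and 129 CPM in non-pregnant heifers. The lowest LDB1 level, 1.97 CPM, was in non-pregnant 115, the library with the highest OR12D2. LDB1 was at 130 CPM in non-pregnant 107 and 124 CPM in NB-preg 108, which also held OR12D2. It was at 13.1 CPM in AI-preg 119 and 210 CPM in non-pregnant 113, where OR12D2 had 0 counts. ATF5, a transcription factor of the feedback that follows receptor expression, had medians of 2.42 CPM in AI-preg, 1.40 CPM in NB-preg and 7.48 CPM in non-pregnant heifers, and 0 counts in non-pregnant 115. ATF5 was at 0.322 CPM in AI-preg 119 and 19.8 CPM in non-pregnant 113, both with 0 counts of OR12D2. LDB1 and ATF5 are also expressed in many other cell types.

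The study grouped 4 genes with OR12D2 under signal transduction, a list that was selected on these samples and is not independent evidence of its direction. The study had called them differentially expressed between AI-preg and non-pregnant heifers. Its rule was a nominal p in both edgeR and DESeq2, matched to an empirical false discovery rate, and kept with each sample left out. That threshold is unlike the adjusted p used here. ARAP3, a GTPase-activating protein, had medians of 6.11 CPM in AI-preg, 13.0 CPM in NB-preg and 85.3 CPM in non-pregnant heifers. LSP1, a leukocyte protein that binds actin, had medians of 2.80, 1.34 and 12.01 CPM in the same order. NFAM1, an immune receptor with an activation motif, had medians of 1.18, 1.11 and 8.46 CPM. RARA, the retinoic acid receptor alpha, ranged from 7.24 to 21.2 CPM in AI-preg and from 24.7 to 52.0 CPM in non-pregnant heifers. RARA was the only 1 of the 10 listed genes without overlap between these groups, against 7 of all 10942 genes (0.064%) with every AI-preg library below every non-pregnant library; for NB-preg that number was 0 genes (0%). Its log2 fold change was -1.27 (SE 0.43, edgeR adjusted p = 0.78), and 0 of the 4 genes passed the test in any contrast. Between AI-preg and NB-preg these 4 genes had log2 fold changes from -0.58 to 0.15 (edgeR adjusted p = 1.00 each).

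The neutrophil genes varied widely among the same libraries. Of 6 neutrophil markers 4 had an identifier, namely CXCR2, TREM1, CSF3R and S100A12, and S100A12 was the most abundant. Their summed level was 12979 CPM in non-pregnant 94, 557 CPM in non-pregnant 101, 11391 CPM in non-pregnant 107, 12197 CPM in non-pregnant 113 and 167 CPM in non-pregnant 115. The non-pregnant group thus held 3 libraries with a high and 2 with a low sum. The sum ranged from 76.7 CPM to 4132 CPM in AI-preg (median 1005 CPM) and from 220 CPM to 2865 CPM in NB-preg (median 946 CPM). OR12D2 was highest in the non-pregnant library with the lowest sum, heifer 115, and had 0 counts in heifer 113, where the sum was among the highest. Other libraries went the opposite way, since OR12D2 was counted in non-pregnant 94 and 107, at high sums, and had 0 counts in AI-preg 119, with the lowest sum of the 17 libraries. S100A12 carried the sum, and the order of the low libraries differed by gene. Non-pregnant 115 was below non-pregnant 101 in S100A12 (109 against 527 CPM) and TREM1 (1.598 against 12.9 CPM), but above it in CXCR2 (14.9 against 4.56 CPM) and CSF3R (42.3 against 12.5 CPM). AI-preg 117, with the highest sum in AI-preg, had CXCR2 at 0.138 CPM. Within NB-preg the 3 libraries with OR12D2 had sums of 1521, 916 and 690 CPM, and the 3 without had 220, 2865 and 977 CPM, so the sums of the former lay inside the range of the latter. Of the 10 listed genes, 6 had their 3 highest levels in the 3 non-pregnant libraries with a high neutrophil sum, namely ARAP3, LSP1, NFAM1, ARRB2, RGS2 and ATF5. The same held for 731 of all 10942 genes (6.68%), and nothing is read from the difference, since the symbols came from tables selected on these samples and the pattern was looked for after the data were seen. The part of neutrophils in the levels of these 6 genes was not tested.

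**Figure D5:**
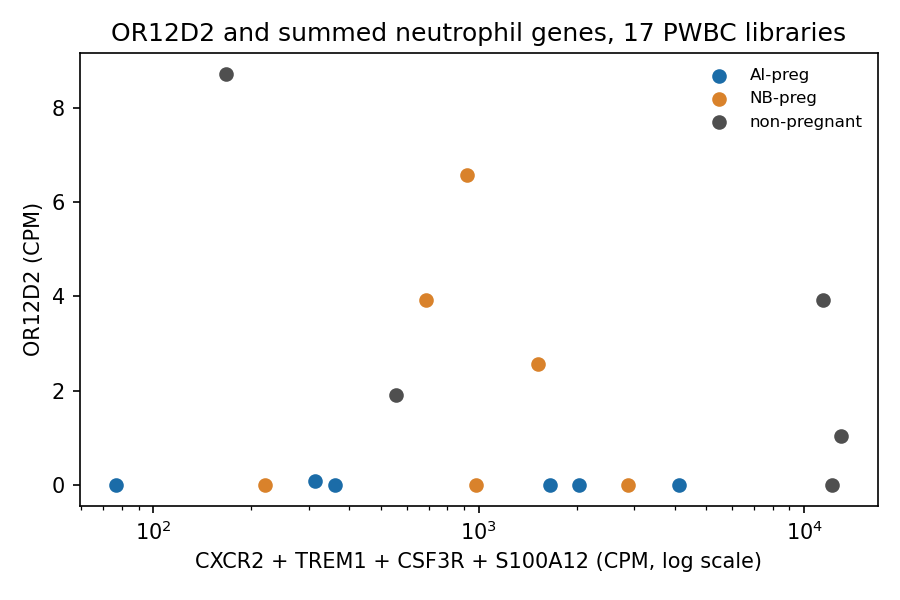
OR12D2 in CPM (y axis) against the summed CPM of 4 neutrophil genes (x axis, log scale) in 17 PWBC libraries, coloured by group. The highest OR12D2 level, 8.73 CPM, is at a sum of 167 CPM, and libraries with 0 OR12D2 counts run from 76.7 to 12197 CPM.

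Other cell type markers were few. CD79A, of the B cell receptor complex, ranged from 3.56 CPM in non-pregnant 115 to 504 CPM in non-pregnant 113. OR12D2 was counted at low CD79A, in non-pregnant 115, and at high CD79A, in non-pregnant 94 (252 CPM) and NB-preg 108 (239 CPM). It had 0 counts at high CD79A, in non-pregnant 113, and at low CD79A, in AI-preg 119 (4.30 CPM) and NB-preg 116 (12.8 CPM). NKG7, of natural killer and cytotoxic T cells, ranged from 2.83 to 69.6 CPM, and IL5RA, of eosinophils and other cells, from 3.73 to 36.8 CPM. ITGA2B, of the platelet fibrinogen receptor, ranged from 0.123 to 64.3 CPM, and TUBB1, the platelet beta tubulin, from 0.0646 to 1860 CPM. Medians of some of these genes differed between the groups in which OR12D2 was described. IL5RA was at 10.5 CPM in AI-preg, 4.67 CPM in NB-preg and 21.2 CPM in the non-pregnant group, and TUBB1 was at 831, 371 and 85.0 CPM in the same order. ITGA2B, the other platelet gene, was instead highest in the non-pregnant group, with medians of 7.93, 3.396 and 41.4 CPM. PTPRC had medians of 1788, 563 and 452 CPM. For each of these genes the ranges of AI-preg and non-pregnant heifers overlapped. TUBB1 ran from 77.2 to 1534 CPM in AI-preg and from 0.0646 to 1530 CPM in the non-pregnant group. PTPRC ran from 340 to 3072 CPM in AI-preg and from 235 to 3225 CPM in the non-pregnant group. The part of these cell types in the levels of OR12D2 was not tested. The platelet genes also went opposite ways in some libraries. TUBB1 was at 1530 CPM and ITGA2B at 0.123 CPM in non-pregnant 115, while TUBB1 was at 0.0646 CPM and ITGA2B at 41.4 CPM in non-pregnant 94, and both libraries held OR12D2. The markers of T cells, monocytes, red cells and olfactory sensory neurons were not analysed here, since none was paired with an identifier.

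Small RNA libraries from plasma of the same 17 heifers gave a second readout that was not used to choose the gene. OR12D2 had 0 counts in all 17 plasma libraries, which together held 120138423 counts. The limit of 3 counts ranged from 0.176 CPM in non-pregnant 107 to 2.79 CPM in AI-preg 120, and was 0.025 CPM over all plasma libraries together. With every value at 0 the planned comparison of groups could not be made. Plasma libraries were selected for short RNA, so their counts say little about an intact messenger RNA.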

How the data were processed

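The authors sequenced stranded mRNA libraries of PWBC and small RNA libraries of plasma. The deposited values are raw counts per Ensembl gene, which the authors made with HISAT2 2.1.0 and featureCounts 1.6.0 on ARS-UCD1.2 (submitters' processing notes), after reads with several alignments or many mismatches were removed; duplicated read pairs were not counted. The study's code names a later subread release for featureCounts than those notes. The authors left out 1 non-pregnant library of low yield. From these counts, CPM over genes past the filter (2 CPM or more in 5 or more libraries), exact 95% Poisson intervals and the limit of 3 counts behind a 0 were computed with Python 3.11.15, scipy 1.17.1 and pandas 2.3.3. Reads carried no molecular identifiers, so intervals and limits cover counting error only. edgeR 4.0.16 in R 4.3.3 fitted the 3 groups in 1 model without scaling factors or covariates (robust quasi-likelihood test, Benjamini-Hochberg adjustment over 10942 genes, threshold 0.05); SE were taken from its F values. DESeq2 1.42.0, TMM factors, no filter and each heifer left out were alternatives. The edgeR steps were also run on simulated data, and no result here rests on that run. Library totals were compared by exact permutation tests. Of the 136 pairs of PWBC libraries 0 held identical counts. Named genes were OR12D2, some of the 8 highest and 4 lowest in r, and listed genes of olfactory signalling, receptor gene choice, signal transduction and cell types. Genes named for their zeros, for near absence or for likeness over any count were chosen after their values were seen. Symbols came from the study's gene tables. The RefSeq gene table described the neighbours and the OR12D genes, but it could not be linked to the counts. No protein table was used here, so closest proteins were not analysed. The members and lists were chosen with earlier results of these data known.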

Additional observations from a re-analysis of the deposited data

Results flagged for a closer look

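Of 36 sets of values from groups of 5 or 6 heifers, 5 held 1 heifer far from the others. The rule takes about 1 in 20 as the share by chance, a rate not measured on these values. AI-preg heifer 120 had OR12D2 at 0.0768 CPM, from 3 counts, where the other 5 AI-preg heifers were at 0. Any count would have stood apart from 5 zeros, and these values chose the gene, so nothing is read from it; 4 of the other 35 sets remain. On the log2(CPM + 1) scale, RGS2 was at 6.95 in AI-preg heifer 114, with the next heifer at 4.60, and at 3.90 in non-pregnant heifer 101, with the next at 7.29. RGS3 was at 0.83 in NB-preg heifer 116, with the next at 2.61. LDB1 was at 1.57 in non-pregnant heifer 115, with the next at 6.49.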

How the results depend on the processing

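No gene passed edgeR's test in any contrast with TMM factors, without the filter, without any 1 heifer (lowest 0, highest 0) or, chosen after seeing the data, without the 3 non-pregnant libraries below 10000000 counts. With DESeq2, 5 genes passed between AI-preg and non-pregnant heifers and 11 between NB-preg and non-pregnant heifers; the cause was not tested. No listed gene passed with TMM factors, DESeq2, no filter or any 1 heifer left out. The OR12D2 median moved by less than 1 SD under each scaling. Pooled over a group, without 1 heifer (chosen after seeing the data), it was 0 to 0.0192 CPM in AI-preg, 1.06 to 4.197 CPM in NB-preg and 1.17 to 3.53 CPM in non-pregnant heifers. Leaving out 1 heifer gave medians of 0 to 0 CPM in AI-preg, 0 to 2.57 CPM in NB-preg and 1.48 to 2.92 CPM in non-pregnant heifers. At 0.5 CPM, 1 gene was near absent in AI-preg, 0 in NB-preg and 2 in non-pregnant heifers, as a stricter limit must lower the count. Leaving out 1 heifer gave 2 to 25, 1 to 13 and 3 to 68 genes. The log2 fold change of RGS3 between AI-preg and non-pregnant heifers was -0.26; leaving out 1 heifer gave -0.56 (without non-pregnant 115) to 0.15 (without non-pregnant 94); the cause was not tested. The r of the 8 highest and 4 lowest genes kept its sign throughout. These genes were taken for extreme r in these same libraries, so a kept sign says little. Without non-pregnant 115, 1 of the 8 highest and 0 of the 4 lowest kept their place. The depth comparison of AI-preg with non-pregnant heifers gave exact permutation p from 0.0079 to 0.029 without 1 of its 11 heifers, chosen after seeing the data. Adjusted over 3 pairs, the permutation p ran from 0.024 to 0.086 and was under 0.05 only without AI-preg 114. NB-preg heifers are not part of this comparison, and leaving 1 of them out kept its adjusted permutation p at 0.039. No paired analysis was possible because each heifer belongs to 1 group and the groups share no heifer number. Depth limits OR12D2 to 0.0448 to 0.469 CPM where no count was found.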
